A study of Homo sapiens with 31 samples.

Results

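The replication-dependent histone genes are the genes that supply the core and linker histones for newly made DNA. In the human genome most of them stand in a large cluster on chromosome 6 and a smaller one on chromosome 1. They were taken here as the protein-coding genes of the GENCODE annotation of hg19 whose symbols begin with H1-, H2AC, H2BC, H3C or H4C, or with the older HIST1 or HIST2, between 25.9 and 28.4 Mb of chromosome 6 and between 149.7 and 149.9 Mb of chromosome 1. This gave 61 genes out of 20163 protein-coding genes: 6 for the linker histone H1, 15 for H2A, 14 for H2B, 13 for H3 and 13 for H4. Chromosome 1 holds 11 of them, and chromosome 6 holds 29, 5 and 16 in groups that lie more than 300 kb apart. A gene was counted as occupied in a library when a ChIP-seq peak had its summit no more than 1 kb from the start of transcription (TSS), taken as the 5′ end of the gene record.

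ChIP-seq pulls down chromatin fragments with an antibody against a protein and sequences them, so that bound places appear as peaks over an input. The proteins were EVI1, a zinc-finger transcription factor encoded at MECOM, and CTBP2, a co-repressor that EVI1 contacts through its PLDLS motif. In MUTZ3, a human acute myeloid leukemia line in which a chromosome 3 rearrangement activates EVI1, a doxycycline (dox)-inducible lentiviral vector expressed 4 copies of the PLDLS peptide. CTBP2 and EVI1 were each profiled in 2 libraries after 72 h with dox and in 2 libraries without it. All 8 came from this one transduced line and were crosslinked with DSG before formaldehyde. The control MUTZ3 cells carried the PLASS peptide in a retroviral vector, and CTBP2 was profiled in 2 libraries. Unmodified MUTZ3 cells gave 1 EVI1 library with DSG and 1 CTBP2 library with a single crosslink. MOLM1, a line from a chronic myeloid leukemia in blast crisis, carried an uninduced short hairpin against EVI1 and gave 1 CTBP2 library with DSG. The labels do not say whether libraries of one group came from separate cultures, so the spread between them may be technical.

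Histone genes are short, have no intron in most cases, and are switched on in S phase. They are transcribed in a nuclear body built around NPAT, which cyclin E and CDK2 phosphorylate at the start of S phase. Their messenger RNAs end in a stem-loop bound by SLBP instead of a poly(A) tail. Each class has its own upstream elements: HINFP binds an element of H4 promoters, POU2F1 binds the octamer of H2B promoters, and an AAACACA box marks H1 promoters.

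The 13 lists held between 6688 and 72214 peaks, and their median fold enrichment, the authors' ratio of summit signal over local background, lay between 4.84 and 6.66. Read counts are not part of these lists, and the depth of each library is unknown. List sizes differed within groups too: the PLASS lists held 6688 and 31310 peaks. Strength is therefore given as a percentile rank within a list, where 100 is the strongest peak by fold enrichment. A count of occupied genes is given beside the same count over all protein-coding genes.

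The upstream sequences of 7 genes are shown because each class has its own upstream elements, against which the peak summits are placed further on. They are the gene of each class with the highest mean CTBP2 percentile rank in untreated inducible cells, followed by 2 genes without a peak in any list. Each is the stretch from 150 bases to 1 base before the TSS on the strand of the gene, 5′ to 3′, from hg19. Capitals mark the letters of any of 9 motifs on either strand: CCAAT, the TATA box TATAAA, the octamer ATTTGCAT, the H4 element core GGTCCG, the H1 box AAACACA, the GC box GGGCGG, the GATA type GATAAG, the EVI1 second-finger motif GAAGATGAG and the ETS type CGGAAG.
H1-3, chr6:26235216-26235365, minus strand: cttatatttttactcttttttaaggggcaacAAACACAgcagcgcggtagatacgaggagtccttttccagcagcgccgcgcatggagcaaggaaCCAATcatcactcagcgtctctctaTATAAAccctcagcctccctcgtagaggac
H2AC13, chr6:27775801-27775950, plus strand: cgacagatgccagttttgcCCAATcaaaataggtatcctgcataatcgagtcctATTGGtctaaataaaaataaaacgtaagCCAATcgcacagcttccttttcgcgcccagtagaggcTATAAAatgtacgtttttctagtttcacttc
H2BC13, chr6:27775708-27775857, minus strand: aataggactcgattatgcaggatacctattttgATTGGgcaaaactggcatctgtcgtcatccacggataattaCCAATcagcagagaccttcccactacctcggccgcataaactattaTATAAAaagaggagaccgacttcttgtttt
H3C14, chr1:149812781-149812930, minus strand: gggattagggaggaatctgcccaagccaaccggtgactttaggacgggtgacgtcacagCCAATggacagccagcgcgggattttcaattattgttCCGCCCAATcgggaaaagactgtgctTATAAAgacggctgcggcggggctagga
H4C14, chr1:149804071-149804220, plus strand: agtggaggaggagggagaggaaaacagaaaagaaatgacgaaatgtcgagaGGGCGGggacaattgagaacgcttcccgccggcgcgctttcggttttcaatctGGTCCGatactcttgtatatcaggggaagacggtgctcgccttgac
H1-1, chr6:26018016-26018165, minus strand: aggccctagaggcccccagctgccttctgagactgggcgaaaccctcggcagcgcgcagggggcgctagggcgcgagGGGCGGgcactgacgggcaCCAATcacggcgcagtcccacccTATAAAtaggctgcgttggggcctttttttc
H4C7, chr6:26247225-26247374, minus strand: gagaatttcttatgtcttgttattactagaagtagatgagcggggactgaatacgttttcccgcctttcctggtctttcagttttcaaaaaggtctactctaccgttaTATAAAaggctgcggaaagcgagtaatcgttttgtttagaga
H2AC13 and H2BC13 stand head to head, so their stretches overlap and read the same DNA from opposite strands. In H3C14 a GC box on the other strand overlaps the second CCAAT. In H4C14 the H4 element core lay at bases -46 to -41, and H4C7 had no match to it in this window.

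In the 250 bases before the TSS, searched on both strands, CCAAT was present in 51 of 61 histone promoters (83.6%) and in 33.1% of 20140 promoters with a full window. It was present in all 13 H3 promoters and all 6 H1 promoters but in 5 of 13 H4 promoters. TATAAA was present in 40 of 61 against 10.1% of all promoters. The octamer was found in 11 of 15 H2A and 10 of 14 H2B promoters, which often share one intergenic stretch, in 1 of 13 H3 promoters, and in 1.56% of all promoters. GGTCCG was found in 10 of 13 H4 promoters and in 1 promoter each of H2A, H2B and H3, against 10.3% of all promoters, and AAACACA in 6 of 6 H1 promoters against 4.49%. GATAAG was found in 2 of 61 (3.28%) against 5.03%, and GAAGATGAG in none of the 61 against 0.209%. A match says only that the letters are there.

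EVI1 peaks were at nearly all of these genes in the inducible cells. Without dox, 53 and 55 of the 61 genes were occupied by EVI1, where 54.4% and 59% of all protein-coding genes were. With dox, 56 and 55 were occupied, against 55.4% and 52.9% of all genes. The lowest of the 4 histone shares was 86.9% (95% Wilson interval 76.2 to 93.2, which covers counting error over genes only and treats genes that share a peak as separate). The 37 other protein-coding genes of the same chromosomal windows were occupied in 20, 22, 21 and 22 cases, or between 54.1% and 59.5%. In all 4 EVI1 lists together 53 of 61 histone genes had a peak, against 48.6% of all genes.

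**Figure D1:**
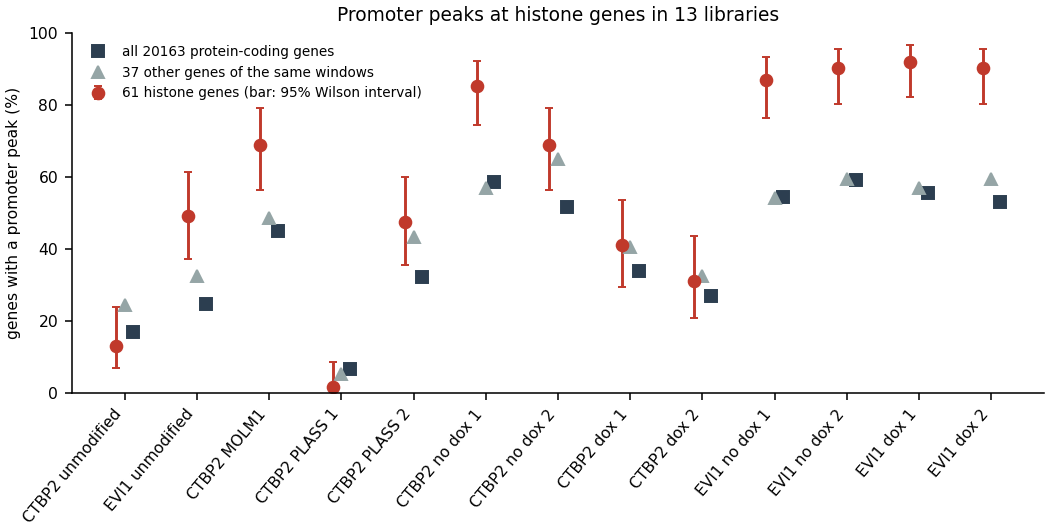
Percentage of genes with a promoter peak (vertical axis) in each of the 13 libraries (horizontal axis) for the 61 histone genes (circles, with the 95% Wilson interval as a bar), all 20163 protein-coding genes (squares) and the 37 other genes of the same windows (triangles). In the 4 EVI1 libraries of the inducible line the histone genes lie between 86.9% and 91.8%, above both other sets, and in the dox CTBP2 libraries they lie at 41.0% and 31.2%.

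CTBP2 peaks were at most of the same genes without dox. CTBP2 occupied 52 and 42 histone genes, against 58.5% and 51.5% of all genes, and 40 in both libraries, against 49.3% of all genes. Of the 53 genes with EVI1 in both untreated libraries, 38 also had CTBP2 in both, or 71.7%, while among all genes with EVI1 in both it was 88.8%. In the other direction 38 of 40 genes with CTBP2 had EVI1 (95%), close to the 94.6% of all genes. H3C2, H3C8 and H3C10, all H3 genes, had EVI1 in both untreated libraries and CTBP2 in neither. H3C14 had CTBP2 in both and EVI1 in neither. The EVI1 summit nearest to H3C14 in untreated replicate 2 lay 1294 bp from its TSS, just outside the distance counted.

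The peaks of EVI1 were also strong ones. The median percentile rank of EVI1 promoter peaks at histone genes was 72.7 and 80.7 without dox and 77.8 and 76.9 with it, and over all promoter peaks it was 58.9, 75.3, 65.4 and 56.9. The histone median was the higher in 4 of 4 libraries, by 5.44 to 19.9 points. CTBP2 did not show this. Its histone medians without dox were 58.0 and 59.3 where all promoter peaks had 74.4 and 59.3, so the histone median was lower in one library and level in the other.

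By class median, H4 genes carried the strongest EVI1 peaks of the inducible line. EVI1 occupied 12 of the 13 H4 genes in each of the 4 inducible libraries, with median percentile ranks of 89.7 and 93.3 without dox and 88.2 and 89.1 with it. The other classes together had medians of 68.3 and 79.1, then 72.3 and 75.5. In unmodified cells the order was the other way, with an H4 median of 18.6 and a median of 27.6 for the other classes. H4C14 and H4C15, a pair with identical promoter sequence on chromosome 1, stood at the top. The fold enrichment of EVI1 at H4C15 was 31.4 and 52.7 without dox and 18.97 and 19.46 with dox. At H4C14 it was 25.7 and 45.7 without dox and 19.6 and 19.1 with it. Both genes were thus lower with dox in both libraries on the fold scale, while their percentile ranks lay between 95.1 and 99.6 in all 4 lists. H4C11 and H4C12 on chromosome 6, which share part of their promoter sequence with one another, followed, with percentile ranks of 93.8 to 96.3 and 87.1 to 97.3. The H4 medians include H4C14, H4C15, H4C11 and H4C12, whose reads may be misplaced as described further on, and no H4 median was taken without these genes. H2A and H2B genes were all occupied by EVI1 in the 4 inducible libraries, in 15 of 15 and 14 of 14, against 52.9% to 59% of all genes. Their inducible medians lay between 71.1 and 81.1. In unmodified cells 8 of 15 and 7 of 14 were occupied, against 24.7% of all genes. H3 genes came lower in the inducible line, with 9 and 10 of 13 occupied without dox, 11 and 10 with dox, and medians of 52.6 to 59.3. H1 genes were occupied in 3 and 4 of 6 without dox and in 4 of 6 with dox.

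**Figure D2:**
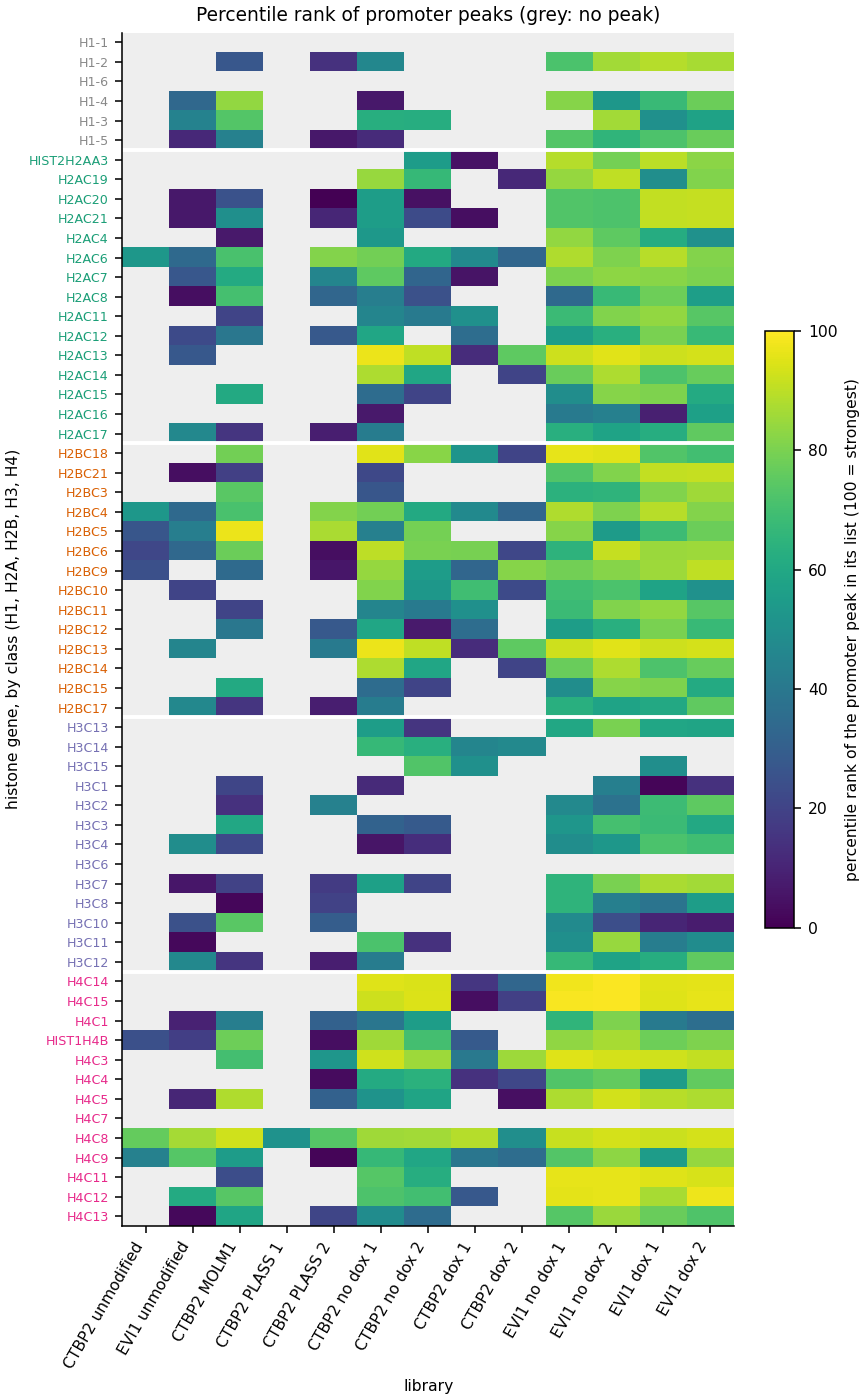
Percentile rank of the strongest promoter peak (colour, 100 is the strongest peak of its list, grey is no peak) for each of the 61 histone genes (rows, grouped by class) in each of the 13 libraries (columns). The 4 EVI1 columns of the inducible line are filled for 53 genes, and 15 genes have a CTBP2 peak in all 4 of the inducible CTBP2 columns.

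H4C8, a gene on chromosome 6 at chr6:26285323-26286160 by its EVI1 peak in untreated replicate 1, was the one gene with a peak in all 13 lists. Its fold enrichment for EVI1 was 14.9 and 19.4 without dox, 15.5 and 15.8 with dox, and 10.5 in unmodified cells. For CTBP2 it was 12.01 and 10.07 without dox, 7.93 and 5.32 with dox, 6.95 in unmodified cells, 5.03 and 6.75 with PLASS and 16.7 in MOLM1. The EVI1 values of treated and untreated cells overlapped, and the CTBP2 values did not. At the other end H1-1, H1-6, H3C6 and H4C7 had no promoter peak in any list. H1-6 encodes a linker histone of the testis. The gene record of H3C6 starts 956 bp from its start codon, so its window is not centred on the coding part. The records of H2BC6 and H3C12 start 11737 and 2314 bp from the start codon and have the same limit.

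The summits lay inside the genes and not on the upstream elements. In the EVI1 libraries of the inducible line, the median summit was 156, 142, 162.5 and 150 bp downstream of the TSS at histone genes, and 32, 36, 36 and 23.5 bp at all other genes. The difference was 121 ± 9.90 bp (SD, n = 4 libraries) and lay between 106 and 126.5 bp. Without dox, 37 of 53 and 40 of 55 EVI1 summits fell in the coding part of the gene, 3 and 1 between the TSS and the start codon, 2 and 3 past the coding part, and 11 and 11 upstream. Of the upstream summits, 8 and 7 belonged to genes of the 8 head-to-head pairs, where the place upstream of one gene is the partner. Among genes outside these pairs, 78.4% and 84.6% of EVI1 summits fell in the coding part. The coding parts are 294 to 678 bases long.

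**Figure D3:**
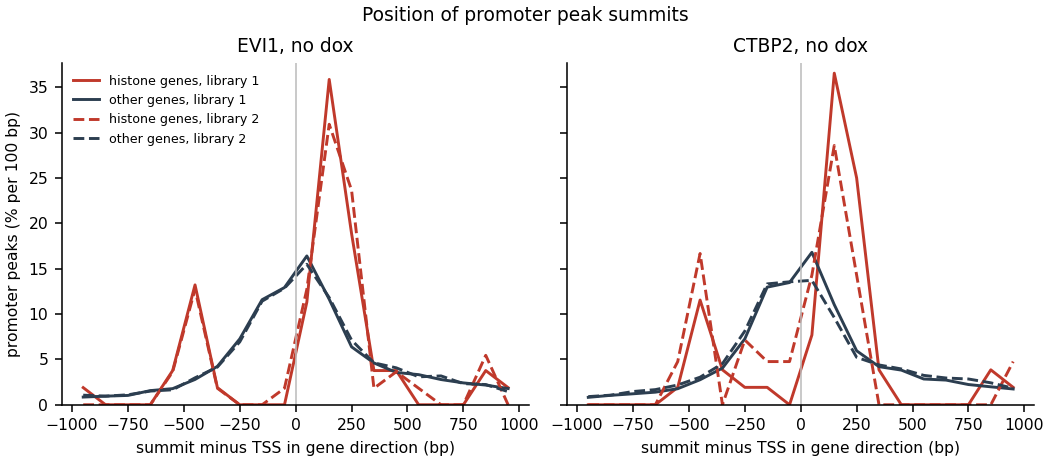
Position of promoter peak summits relative to the TSS (horizontal axis, bp, positive in the direction of the gene) as a percentage of promoter peaks per 100 bp (vertical axis) for EVI1 and CTBP2 without dox, in library 1 (solid) and library 2 (dashed). Histone genes (red) have their main rise between 100 and 300 bp downstream, with a lower one near -450 bp where head-to-head partners lie, while other genes (dark) are spread around the TSS.

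CTBP2 summits lay downstream as well, over a wider range of medians. Their median position at histone genes was 158.5 and 94 bp downstream without dox and 57 and 60 bp with dox, and between -11 and 20 bp at other genes. Coding parts held 37 of 52 and 24 of 42 CTBP2 summits without dox. In genes with both proteins, the EVI1 and CTBP2 summits were a median of 60 and 64.5 bp apart at histone genes, and 76 and 87 bp apart at other genes. In unmodified cells the EVI1 summits were elsewhere: 10 of 30 fell in coding parts, 9 past them and 9 upstream, with a median of 257.5 bp.

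The motifs were also counted around the summits. In untreated EVI1 replicate 1 the median summit lay 156 bp downstream of the TSS at histone genes and 32 bp at other genes. Windows around histone summits therefore reach less of the upstream sequence, and the shares below compare unlike stretches. Within 100 bases of the EVI1 summit in untreated replicate 1, CCAAT was found at 1 of 43 distinct histone promoter peaks (2.33%) and at 16.4% of 9462 promoter peaks of other genes. CGGAAG was found at 1 of 43 (2.33%) against 26.2%, and GGGCGG at 11 of 43 (25.6%) against 51.4%. GATAAG, which resembles the motif of the first zinc-finger domain of EVI1, was found at 2 of 43 (4.65%) against 2.92%, and at 7.02% of 40948 peaks at no promoter. GAAGATGAG was found at 0 of 43 against 0.37%. Among the class elements, TATAAA was at 1 of 43 against 1.57%, AAACACA at 1 of 43 against 1.48%, GGTCCG at 2 of 43 against 12.6% and the octamer at 0 of 43 against 0.317%. At the 43 distinct CTBP2 peaks of untreated replicate 1, GATAAG was found at 3 (6.98%), against 2.49% of promoter peaks of other genes, and CCAAT at 3 against 16.5%.

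CTBP2 peaks were fewer with dox. The study used the dox-inducible PLDLS peptide to ask whether CTBP2 leaves chromatin when its contact with EVI1 is competed for. CTBP2 occupied 52 and 42 histone genes without dox and 25 and 19 with dox, so the groups did not overlap. The shares of all genes did not overlap either, at 58.5% and 51.5% without dox and 33.9% and 26.9% with dox. The mean count was 47 ± 7.07 without dox and 22 ± 4.24 with dox (SD, n = 2 libraries each), a difference of -25. An exact permutation of the 4 library labels, two-sided, returned p = 0.33, and no smaller value is possible with 2 against 2. EVI1 counts were 54 ± 1.41 and 55.5 ± 0.707 (SD, n = 2 each) and overlapped, with an exact permutation p of 0.67.

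The CTBP2 count changed when the lists were made equal in size. With each CTBP2 list cut to its strongest 23878 peaks, the size of the smallest list, 23 and 23 histone genes were occupied without dox and 25 and 19 with dox, a difference of -1. All genes were then occupied at 40.1% and 26.4% without dox and 32.6% and 26.9% with dox. Depth is unknown, so a shorter list and less CTBP2 at these genes cannot be told apart from the counts.

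A gene was counted as keeping a protein when any peak summit lay within 1 kb of its TSS with dox, whether or not it was the same peak. Of the 40 histone genes with CTBP2 in both untreated libraries, 22 and 19 kept it in the dox libraries, a mean of 51.2% ± 5.30 (SD, n = 2). Over all genes with CTBP2 in both untreated libraries, 64.9% and 52.0% kept it, a mean of 58.5% ± 9.07. The histone share was the lower one in both dox libraries, at a distance of -7.21 points ± 3.76 (SD over 2 dox libraries). The kept share moved with the setting: it was 76.3% with lists of equal size, where the distance from all genes was -0.826 points, and 16.7% at a fold of at least 5, where it was -16.5 points. With summits within 2 kb the distance was -1.58 points. CTBP2 was kept in both dox libraries at 15 of 40 histone genes, where it was 45.5% over all genes, and in neither at 14 of 40, where it was 28.6%. Kept shares followed the strength of the untreated peak. Among genes with a mean percentile rank of 80 or more, all 8 histone genes were kept in both dox libraries, against 87.4% ± 4.96 of other genes. Between 60 and 80 it was 63.3% ± 4.71 of 15 histone genes against 59.8% ± 10.0 of other genes. Between 40 and 60 it was 28.6% ± 20.2 of 7 histone genes against 40.9% ± 12.1. Under 40 it was 10% ± 14.1 of 10 histone genes against 27.3% ± 10.6. Among the 8 histone genes at 80 or more, H2AC13 and H2BC13 share one peak. H4C14, H4C15, H2AC13, H2BC13 and H2BC18 also have 20% or more of their promoter sequence shared with other loci, as described further on.

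EVI1 was kept at every histone gene that had it in both untreated libraries, where kept again means any peak within 1 kb of the TSS. At H2AC11 and H2BC11 the strongest untreated peaks, chr6:27100799-27101340 and chr6:27100795-27101301, did not overlap the strongest dox peaks, chr6:27100123-27100600 and chr6:27100122-27100584. All 53 genes with EVI1 in both untreated libraries had it in both dox libraries, where it was 92.5% over the 52.5% of all genes that had EVI1 in both untreated libraries. None of the 53 lost it in both, against 2.01% of all genes. The other genes of the same windows kept it as well, in 19 of 19 cases. Of the 53 histone genes, 19 had a mean untreated rank of 80 or more, where other genes kept EVI1 at 99.4%. Another 26 lay between 60 and 80, against 97.9%, 7 between 40 and 60, against 92.5%, and 1 under 40, against 86.3%. By summit, H3C15 was the one histone gene without untreated EVI1 that had a peak with dox, in dox replicate 1 at percentile rank 49.5. That dox peak is also the one counted for H2AC19. The untreated peaks of H2AC19, chr1:149821885-149825693 and chr1:149821855-149825676, spanned the TSS of H3C15 too. Their summits lay beyond the distance counted, so this gain rests on where the summit was placed.

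**Figure D4:**
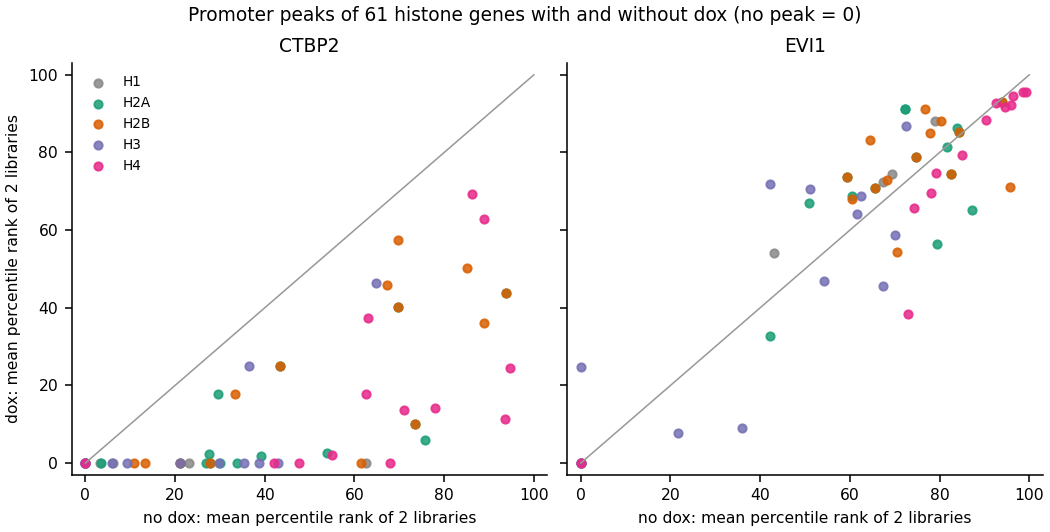
Mean percentile rank of the promoter peak over 2 libraries without dox (horizontal axis) and with dox (vertical axis) for each of the 61 histone genes, coloured by class, with a missing peak set to 0 and the line of equal rank in grey. All 54 genes with a CTBP2 peak without dox lie under the line in the left panel, where ranks come from longer lists without dox than with it, and EVI1 points lie on both sides of it in the right panel.

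A CTBP2 peak was called in all 4 lists at 15 histone genes, or 24.6%, near the 22.4% of all genes. They were H4C14, H4C15, H4C3, H4C8, H4C9 and H4C4 of the H4 class, H2BC13, H2BC18, H2BC6, H2BC4, H2BC9 and H2BC10 of the H2B class, H2AC13 and H2AC6, and H3C14 as the only H3 gene. These counts run over genes: H2AC13 and H2BC13 share one peak, and so do H2AC6 and H2BC4. At H2AC6 and H2BC4 the strongest peak of dox replicate 1, chr6:26124622-26124876, did not overlap the strongest untreated ones, chr6:26123321-26124144 and chr6:26123156-26124115. H4C14 had CTBP2 folds of 18.2 and 14.3 without dox and 3.61 and 4.64 with dox. H2BC13 and H2AC13 had 21.0 and 11.8 without dox and 3.47 and 6.94 with dox, with percentile ranks of 96.9 and 90.5, then 12.5 and 75.2. At H4C14, H2BC13 and H2AC13 the untreated and dox folds did not overlap. Among the 15 genes they overlapped at H2BC9 and H2BC10. H2BC9 had 11.45 and 5.85 without dox and 4.23 and 7.74 with dox, and H2BC10 had 10.59 and 5.75, then 5.77 and 4.23. Over all genes with a promoter peak the median fold was lower with dox too, at 9.06 and 6.12 without dox and 4.63 and 4.90 with dox. The share of all genes with overlapping folds was not counted, so no difference from other genes can be read from this. H4C3 had percentile ranks of 92.6 and 85.3 without dox and 40.5 and 85.2 with dox.

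CTBP2 was called in both untreated and in neither dox library at 14 histone genes. The 10 with the highest untreated rank were H4C11, H1-3, H2BC5, H4C1, H3C11, H4C13, H3C7, H3C13, H2AC8 and H2AC20. For H1-3 and H3C7 this rests on the distance counted: a dox summit lay 1082 bp from the TSS of H1-3 in replicate 1, and one at a percentile rank of 82.0 lay 1074 bp from that of H3C7 in replicate 2. H4C11 had CTBP2 folds of 8.88 and 6.41 without dox, at percentile ranks of 73.6 and 62.2, while its EVI1 peak had folds of 20.6 and 24.9 without dox and 19.3 and 16.02 with it. H1-3, whose mean rank was the highest of the linker histones, had CTBP2 folds of 7.27 and 6.43. H2BC5 had 5.62 and 8.47. By class, CTBP2 was in neither dox library at 5 of 6 H3 genes, 3 of 12 H4 genes, 2 of 11 H2B genes, 3 of 10 H2A genes and the only H1 gene that had it in both untreated libraries. No test was made between classes, since genes of one class are not replicates.

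The median percentile rank of CTBP2 promoter peaks was 58.0 and 59.3 without dox and 35.7 and 33.1 with dox at histone genes, a difference of -24.3 points (exact permutation p = 0.33, n = 2 each). The untreated lists are longer, and with lists of equal size the difference was -10.8 points (exact permutation p = 1.0). With a fold enrichment of at least 5 asked of every peak, the difference was 12.3 points in the other direction. All promoter peaks moved the same way, and relative to their median the histone median changed by 0.936 points (exact permutation p = 1.0).

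The top genes of each class not yet given were as follows. H1-2 had CTBP2 in one untreated library at a fold of 5.78 and in no dox library. H2AC19 had folds of 11.6 and 6.85 without dox, and H2BC18 had 18.7 and 9.15. H4C15 had folds of 15.5 and 14.7 without dox and 2.95 and 4.08 with it. H3C14 had folds of 7.78 and 6.46 without dox, and H3C11 had 8.51 and 3.82. H2BC18 kept CTBP2 in both dox libraries at percentile ranks of 51.9 and 20.5, and H2AC19 had it in dox replicate 2 only.

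Several histone genes are near copies of one another, and reads that lie wholly in shared sequence cannot be placed with certainty. For each gene the share of 50-base windows within 500 bp of the TSS that occur elsewhere in hg19 was counted. The paper describes single-end reads of 50 bases or paired-end reads of 100 bases, and its text does not say which library had which. The windows match the shorter format. In 15 genes it was 20% or more, and in 6 it was 100%: H4C14 and H4C15, H3C14 and H3C15, and HIST2H2AA3 and H2AC19. These 6 lie on chromosome 1. H4C11 and H4C12 are also among the 15, each with 41.2% of windows shared, all of them with the other. None of the 6 had a peak in any of the 5 lists from unmodified, PLASS and MOLM1 cells, and between 4 and 6 of them had one in each of the 8 lists of the inducible line. The strong H4C14 and H4C15 values therefore rest on sequence that was called in one experiment alone, and how reads with several placements were treated is not given in the sources used here. Without the 15 genes, EVI1 occupied 40 and 42 of 46 genes without dox and 42 and 42 with it. CTBP2 occupied 39 and 28 of the 46 without dox and 15 and 11 with dox. The kept share of CTBP2 was then 44.6% ± 7.58 (SD, n = 2), and 66.7% in both dox libraries for the 12 genes with shared sequence that had it in both untreated libraries.

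**Figure D5:**
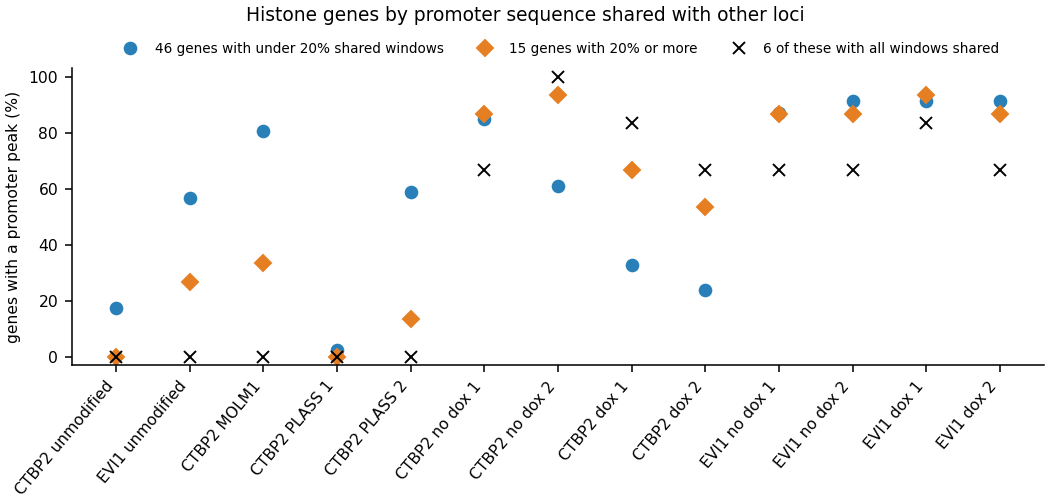
Percentage of histone genes with a promoter peak (vertical axis) in each library (horizontal axis) for 46 genes with under 20% of windows shared (circles), 15 genes with 20% or more (diamonds) and the 6 of these with all windows shared (crosses). The crosses stand at 0 in the 5 libraries outside the inducible line and between 66.7% and 100% within it.

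In unmodified MUTZ3 cells EVI1 occupied 30 of 61 histone genes, where it was 24.7% of all genes, and CTBP2 occupied 8, where it was 16.9%. With 1 library for each protein there is no replicate check, and the crosslinking differed. Both proteins were at 7 genes, which is 23.3% of the histone genes with EVI1, against 45.6% over all genes. Of all 4980 genes with EVI1 in unmodified cells, 4731 had it in both untreated inducible libraries. Of the 30 histone genes, 29 had it there, and H1-3 was the exception. The EVI1 peaks at histone genes were weak: their median percentile rank was 27.3, against 43.0 over all promoter peaks. All 8 histone genes with CTBP2 had it in both untreated inducible libraries, against 3192 of 3399 over all genes.

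In MOLM1 cells CTBP2 occupied 42 histone genes, where it was 44.8% of all genes. All 8 of the unmodified MUTZ3 genes were among them, and 34 were occupied in MOLM1 and not in unmodified MUTZ3. Over all genes, 2931 of 3399 unmodified MUTZ3 genes were also occupied in MOLM1. Of the 9034 genes occupied in MOLM1, 6103 were not occupied in unmodified MUTZ3. The 5 of the 34 histone genes with the highest rank were H4C5, H1-4, H2BC18, H2BC3 and H3C10, with percentile ranks of 88.1, 83.8, 78.9, 74.6 and 74.6. The highest histone peak of the list was that of H2BC5, at a fold of 22.2 and a percentile rank of 96.9, while the same gene was at 4.47 and 26.7 in unmodified MUTZ3. The MOLM1 list is larger than the unmodified CTBP2 list, at 64569 against 16836 peaks, and its crosslinking was different, so cell line, crosslinking and list size cannot be told apart.

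In PLASS cells CTBP2 occupied 1 and 29 histone genes, against 6.69% and 32.3% of all genes. H4C8 was the only one occupied in both libraries, where it was 6.28% of all genes. Counts of 1 and 29 from 2 libraries of one group, whose lists differ in size, give no level for PLASS cells. The libraries of MUTZ3 cells with PLDLS in the same retroviral vector are not analysed here, so no comparison with PLASS was made.

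Some calls turned on the distance of 1 kb. In untreated EVI1 replicate 1, the farthest summit counted was that of H2BC5 at 935 bp, with a fold of 10.4, and the nearest one left out was 1225 bp from H1-3, with a fold of 5.35. In untreated CTBP2 replicate 1 they were H1-4 at 973 bp, with a fold of 3.54, and H3C2 at 1287 bp, with a fold of 6.30. With dox, the nearest CTBP2 summit left out was 1082 bp from H1-3 in replicate 1, with a fold of 3.92, and 1074 bp from H3C7 in replicate 2, with a fold of 7.74.

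Lists of genes whose products serve the clusters were counted in the same way. Over all genes EVI1 was at 54.4% and 59% and CTBP2 at 58.5% and 51.5% without dox, and CTBP2 was at 33.9% and 26.9% with dox. Of 10 genes for the histone locus body and histone transcription, 10 and 8 had EVI1 and 9 and 10 had CTBP2 without dox. CTBP2 was in 6 and 6 with dox. NPAT, the scaffold of the histone locus body, had CTBP2 folds of 17.6 and 16.8 without dox and 5.26 and 5.17 with it. CCNE1, which encodes a cyclin E, had percentile ranks of 97.8 and 90.7 without dox, 66.0 in dox replicate 1 and no peak in dox replicate 2. The lowest of the list were POU2F1, with 66.0 and 4.0, and YY1AP1, with 48.3 and 19.6. HINFP, chosen after its values were seen because it binds H4 promoters, had EVI1 ranks of 85.7 and 94.8 without dox and 96.0 and 94.4 with it.

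All 12 genes for the 3′ end processing of histone messenger RNA had both proteins in all untreated libraries, and EVI1 in all dox libraries. CTBP2 was in 10 and 4 of them with dox. LSM10, a subunit of the U7 particle, had CTBP2 ranks of 95.3 and 82.9 without dox, and SNRPD3, a Sm protein of the same particle, had 90.5 and 84.2. The lowest were ERI1, a 3′ exonuclease, with 31.5 and 4.8, and CSTF2, with 38.0 and 20.1. Of 15 histone chaperones, 13 and 13 had EVI1 and 15 and 11 had CTBP2 without dox, with CTBP2 in 6 and 4 with dox. SSRP1, a subunit of the FACT complex, had CTBP2 ranks of 92.0 and 73.7, and HJURP, the chaperone of CENP-A, had 80.4 and 71.6. CHAF1A, with 15.3, and UBN1, with 32.1, had CTBP2 in untreated replicate 1 alone.

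Among histone genes outside the clusters, of 12 replacement variants and lone linker histones, 9 and 9 had EVI1 and 8 and 9 had CTBP2 without dox, with CTBP2 in 4 and 3 with dox. H3-3A, which encodes the replacement histone H3.3, had CTBP2 ranks of 96.6 and 93.6 without dox and 46.1 and 8.9 with dox. H1-10 had 56.8 and 70.1 without dox and no peak with dox. H3-5 had no peak of either protein in the inducible libraries. Of 5 genes of the replication-dependent type that lie elsewhere, H4C16 alone was occupied. Its CTBP2 ranks were 90.0 and 72.0 without dox, with no peak with dox, and its EVI1 ranks were 40.4 and 70.9 without dox and 14.6 and 49.6 with it. H2AC25, H2BC12L, H2BC26 and H3-4 had no peak of either protein in the inducible libraries.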

How the data were processed

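Peak lists of 13 libraries were analysed. The other samples of the 31 in the study are inputs or libraries whose peaks were not analysed here. The authors aligned reads to hg19 and called peaks against a matched input; the submitters' processing notes name Bowtie 1.1.1 and MACS2 2.1.2. The deposited fold enrichment is the authors' ratio of signal at the summit to local background, and the −log10 p and −log10 q deposited beside it are those of MACS2. None of 527011 peaks on chromosomes 1 to 22, X and Y passed the end of its chromosome in the hg19 reference. Their DiffBind comparison needs reads and was not repeated.

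Genes came from GENCODE release 44 mapped to hg19. A gene's peak was the one with the highest fold enrichment among those with a summit within 1 kb of the TSS. Percentile rank was set within each list. Libraries with and without dox, 2 of each, were compared by exact permutation of their labels, two-sided. Single libraries were described without a test. Upstream sequence was read from the hg19 reference. Shared sequence was the percentage of 50-base windows starting within 500 bp of the TSS that occur elsewhere in the reference, and 20% or more was called duplicated.

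The genes and the gene lists were chosen with earlier results of these data known. Genes were named by a rule: the top 2 of each class by mean untreated CTBP2 rank, those with a peak in all lists or in none, the 10 highest that had CTBP2 in both untreated and neither dox library, the 5 highest in MOLM1 only, the 2 highest and 2 lowest of each list, and any set of 5 or fewer. A gene that the rule names is not reported here. The other genes named, among them the 15 with CTBP2 in all 4 lists, H4C12, H4C3 and HINFP, were chosen after their values were seen.

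Alternatives were other distances, any transcript start, stricter peaks, equal list sizes, merged promoters, duplicated genes left out, the replicate block, ranking by −log10 p and leaving out each library. The start codon in place of the TSS was added after the data were seen. Wilson intervals (95%) cover counting error only. The assignment of peaks to genes and the kept shares were tested on simulated data. The software was Python 3.11.15, numpy 2.4.6, pandas 2.3.3, scipy 1.17.1, numba 0.67.0 and matplotlib 3.10.9.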

Additional observations from a re-analysis of the deposited data

How the results depend on the processing

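The lists give no depth, and with 2 libraries against 2 the permutation test cannot pass any usual threshold, so its p-values say nothing of stability. The lower CTBP2 count with dox (-25) was -32 when a fold enrichment of at least 5 was asked and -1 with lists of equal size, and the other alternatives moved it by less than the spread between libraries. The EVI1 count (1.5) was 0 with summits within 500 bp and within 2 kb, and -0.5 at a fold of at least 5. The start codon in place of the TSS, added after the data were seen, gave -24.5 for CTBP2 and 1 for EVI1.

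The difference in median CTBP2 rank (-24.3) was -22.5 within 500 bp, -32.0 within 2 kb, -31.9 at a −log10 q of at least 5, 12.3 at a fold of at least 5, -28.4 with promoters merged, -16.0 without duplicated genes, -10.8 with lists of equal size and -20.4 with ranks by −log10 p. The cause of the reversal at a fold of at least 5 was not tested. That of EVI1 (0.646) was -2.38 with promoters merged and 6.38 with lists of equal size. The median untreated CTBP2 rank (58.6) was 63.8 within 2 kb, 46.9 at a −log10 q of at least 5, 43.8 at a fold of at least 5, 60.2 with promoters merged, 52.8 without duplicated genes, 44.3 with lists of equal size and 68.2 by −log10 p. That of EVI1 (76.7) was 68.5 at a −log10 q of at least 5, 63.8 at a fold of at least 5 and 70.7 with lists of equal size.

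The kept share of CTBP2 (51.2%) was 58.7% within 2 kb, 35.7% at a −log10 q of at least 5, 16.7% at a fold of at least 5, 44.6% without duplicated genes and 76.3% with lists of equal size. Its distance from all genes (-7.21 points) was -1.58 within 2 kb, -11.0 with any transcript start, -16.5 at a fold of at least 5, -13.8 without duplicated genes and -0.826 with lists of equal size. The kept share of EVI1 (100%) was 98% within 500 bp, 98.0% at a fold of at least 5 and 99.0% with lists of equal size, and its distance from all genes (4.75 points) was 7.04 at a −log10 q of at least 5 and 16.4 at a fold of at least 5. The unmodified counts of 8 for CTBP2 and 30 for EVI1 were 4 and 18 at a −log10 q of at least 5 and 4 and 14 at a fold of at least 5. The PLASS count of 1 was 2 within 2 kb.

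With 1 library left out in turn, the CTBP2 count difference lay between -30 and -20, the EVI1 count difference between 0.5 and 2.5, the CTBP2 rank difference between -25.6 and -22.9, the EVI1 rank difference between -3.37 and 4.66, the CTBP2 kept share between 40.4% and 55% and its distance from all genes between -9.93 and -4.55 points. The EVI1 kept share was 100% each time and its distance from all genes lay between 3.25 and 11.5 points. The EVI1 rank difference turned negative, and its distance from all genes passed 1.5 times the reported value, without untreated replicate 1; the causes were not tested. The lowest CTBP2 kept share was that without untreated replicate 2.

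Replicate numbers are shared between the dox and untreated libraries, but the labels do not say that a number marks a shared culture. The replicate differences of dox and untreated libraries had a correlation over genes of 0.052 for CTBP2 and -0.059 for EVI1, so the numbers were not treated as pairs. With the replicate block the CTBP2 count difference was -25 and the rank difference -24.3, each with an exact p of 0.5, the smallest that 2 pairs allow. The EVI1 differences were 1.5 and 0.646 with a p of 1.0 each, and the replicate block changed no direction.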
